A study of Mus musculus with 11 samples.

Results

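The genes described here act in the maturation of meiotic crossovers, the exchanges of DNA between homologous chromosomes. The list named 8 genes for their roles, namely Msh4, Msh5, Mlh3, Rnf212, Ccnb1ip1, Hfm1, Cntd1 and Cdk2, and their rows were found by gene symbol. 7 of the 8 had a row among the 20265 endogenous genes of the table, and Rnf212 is not analysed here. All 7 passed the filter on low counts and were among the 11139 genes tested.

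SORT-Seq, which reads the 3' ends of polyadenylated transcripts and tags each original molecule with a unique molecular identifier (UMI), was applied to sorted single cells of adult mouse testis, with 1 cell in each well. All 3 mice carried the Dazl-GFP reporter, which labels germ cells, and live GFP-positive cells were taken from them without treatment; strain and exact age are not in the labels. CEL-Seq1 primers served for mouse 1 (8 libraries, 96 wells each), and CEL-Seq2 primers for mouse 2 (1 plate, 384 wells) and mouse 3 (2 such plates, 1 of them sorted by gate and 1 index-sorted). The mouse is the replicate (n = 3), all comparisons are between stages within mice, and mouse 1 cannot be told apart from its protocol.

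Meiotic recombination starts with programmed breaks in the DNA, which are repaired from the homologous chromosome. Few of the resulting joint molecules become crossovers, and every chromosome pair needs at least 1 of them to segregate. MSH4 and MSH5 form a clamp (MutSγ) that holds joint molecules, the helicase HFM1 and the RING proteins RNF212 and CCNB1IP1 (HEI10) act on the intermediates, and MLH3, the nuclease subunit of MutLγ, resolves them. CNTD1, a cyclin-like protein, and the kinase CDK2 act at the late crossover sites in pachytene, when the homologues are fully paired.

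Of 1920 wells, 1448 reached the minimum of 1000 UMIs. The 1237 cells that entered the comparisons were ordered in 12 stages, from stage 1, led by Sdc4, Ccnd2, Egr4, Sall4 and Ret, to stage 12, led by Adam3 and Tcp10 genes. By their markers stages 2 and 3 were differentiating spermatogonia-like, stages 4 and 5 preleptotene-like, stage 7 leptotene/zygotene-like and stages 9 to 12 pachytene-like, while stages 1, 6 and 8 stayed unnamed. None of the 7 genes took part in the staging. Levels are UMIs per 1000000 autosomal UMIs (CPM), computed on the sum over the cells of a mouse at a stage, with 12 to 55 cells and 108572 to 5302389 autosomal UMIs per sum. Dazl, the gene of the reporter, was detected throughout. It stood at 1468 ± 138 CPM (SD, n = 3) in stage 1 and at 3708 ± 358 CPM in stage 8, against 267 ± 36.3 CPM in stage 12. The 21 detected markers of Sertoli, Leydig, peritubular, endothelial and macrophage cells summed to between 19.3 and 291 CPM, with a median of 56.4 over the 36 sums.

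In mm10 (GRCm38) coordinates of GENCODE vM21, Msh4 lies at chr3:153857149-153906138, Msh5 at chr17:35028605-35046745, Hfm1 at chr5:106840192-106926321, Ccnb1ip1 at chr14:50789248-50807732, Mlh3 at chr12:85234520-85270599 and Cdk2 at chr10:128697939-128705031, all on the minus strand. Cntd1 lies at chr11:101279012-101296317 on the plus strand. Becn1, an autophagy gene on the opposite strand at chr11:101285952-101302286, covers the 3' end of Cntd1, where SORT-Seq counts. Whether strand was used in the counting is not given in the sources used here, so reads of Cntd1 and Becn1 may not be told apart.

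Promoters are shown for the genes that rose together between stages 4 and 5 and held a searched motif (Msh5, Hfm1 and Cdk2), and for Cntd1, which rose later. They are the RefSeq windows of GRCm38.p6 from 250 bases before to 50 bases after the annotated start, written 5' to 3' on the strand of the gene, with matches in capitals. Both strands were searched for CNCCTCAG (bound by STRA8, the inducer of meiosis, N being any base), CAGTTG (the core of sites of MYB factors), TTCCCGC (E2F) and TGACGTCA (the cyclic AMP response element).
Msh5 promoter, chr17:35046573-35046872, minus strand: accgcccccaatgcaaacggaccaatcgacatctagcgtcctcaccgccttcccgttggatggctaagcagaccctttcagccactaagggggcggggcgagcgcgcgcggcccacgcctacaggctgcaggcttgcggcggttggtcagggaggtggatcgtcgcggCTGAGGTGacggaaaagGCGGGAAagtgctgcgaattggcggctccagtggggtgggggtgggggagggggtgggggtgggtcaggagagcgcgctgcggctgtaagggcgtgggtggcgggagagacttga
Hfm1 promoter, chr5:106925841-106926140, minus strand: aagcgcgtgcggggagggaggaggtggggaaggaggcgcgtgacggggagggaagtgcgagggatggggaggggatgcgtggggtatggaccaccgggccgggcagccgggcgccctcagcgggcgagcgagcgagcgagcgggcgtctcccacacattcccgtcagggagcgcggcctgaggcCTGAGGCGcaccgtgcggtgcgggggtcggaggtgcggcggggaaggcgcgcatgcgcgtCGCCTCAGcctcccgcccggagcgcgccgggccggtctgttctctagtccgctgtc
Cdk2 promoter, chr10:128705002-128705301, minus strand: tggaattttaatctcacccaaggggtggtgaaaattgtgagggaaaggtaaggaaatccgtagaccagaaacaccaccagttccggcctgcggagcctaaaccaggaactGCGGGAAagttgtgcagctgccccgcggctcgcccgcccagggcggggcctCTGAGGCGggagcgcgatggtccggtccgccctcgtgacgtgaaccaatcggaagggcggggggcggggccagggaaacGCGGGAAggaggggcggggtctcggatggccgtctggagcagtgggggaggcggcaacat
Cntd1 promoter, chr11:101278953-101279252, plus strand: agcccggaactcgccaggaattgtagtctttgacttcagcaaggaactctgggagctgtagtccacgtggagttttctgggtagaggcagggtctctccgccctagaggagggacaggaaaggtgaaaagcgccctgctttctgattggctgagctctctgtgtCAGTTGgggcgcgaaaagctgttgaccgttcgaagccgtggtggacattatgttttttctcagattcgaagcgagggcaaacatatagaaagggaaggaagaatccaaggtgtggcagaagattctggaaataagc
The motif CNCCTCAG was found in 3 of the 7 promoters, those of Msh5, Hfm1 and Cdk2, against 7.97% of 27025 promoters of the same length. G and C made up 67.3%, 75.3% and 64.7% of these 3 windows, and 43.3% to 52.0% of the windows of the other members. The shares over all promoters given here were not matched for base composition, and its part in the matches was not tested. Hfm1 held CNCCTCAG on both strands, with first bases 66 and 6 bases before the start. TTCCCGC was found in the promoters of Msh5 and Cdk2, against 4.66% of all, and did not overlap CNCCTCAG there. CAGTTG was found only in that of Cntd1 among the 7, on the plus strand, against 13.6% of all. TGACGTCA, present in 1.88% of all promoters, matched in none of the 7 windows, and the windows of Msh4, Mlh3 and Ccnb1ip1 held none of the 4 motifs. The windows of Msh4 (chr3:153904842-153905141), Ccnb1ip1 (chr14:50795679-50795978) and Hfm1 lie inside the GENCODE spans of these genes. The 5' ends of those spans were not searched, so the absence of motifs holds for these RefSeq windows only. A match is a description of the letters and does not show binding.

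The members rose at different stages, with rises of Cdk2 at stage 2, of Msh4, Msh5, Hfm1 and Cdk2 at stage 5 and of Ccnb1ip1, Mlh3 and Cntd1 at stage 9 among them. Cntd1 was above stage 1 before that, at stage 7 by 3.18 ± 0.40 on the log2 scale (SE). It was also called above stage 1 at stages 4, 5 and 6, by 1.24 ± 0.48, 1.41 ± 0.55 and 1.94 ± 0.64. Of 10 alternatives with the same stages, 3, 5 and 8 kept these calls, and all 10 kept the call at stage 7. Over the 12 stages all 7 changed (edgeR's quasi-likelihood F test, adjusted p from 2.12e-25 for Cntd1 to 3.54e-11 for Cdk2). So did 95.9% of all genes tested, and the count therefore sets the members apart from nothing. At stage 7 all 7 were higher than at stage 1, where 23.2% of all genes were. These are shares of UMIs, and per UMI of the ERCC spike-ins described further on, Mlh3, Ccnb1ip1 and Cdk2 were below stage 1 at stage 7 in every mouse, by log2 -0.84 ± 0.44, -0.82 ± 0.64 and -0.42 ± 0.32 (SD, n = 3). At stage 12, 6 of the 7 were still higher than at stage 1, against 34.4% of all genes. None was lower, by an adjusted p or an unadjusted p under 0.05 and by edgeR or DESeq2, against 42.4% of all genes by the adjusted p in edgeR. The median change from stage 1 to stage 12 was 1.88 on the log2 scale over the 7 members and -0.20 over all genes tested.

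**Figure D1:**
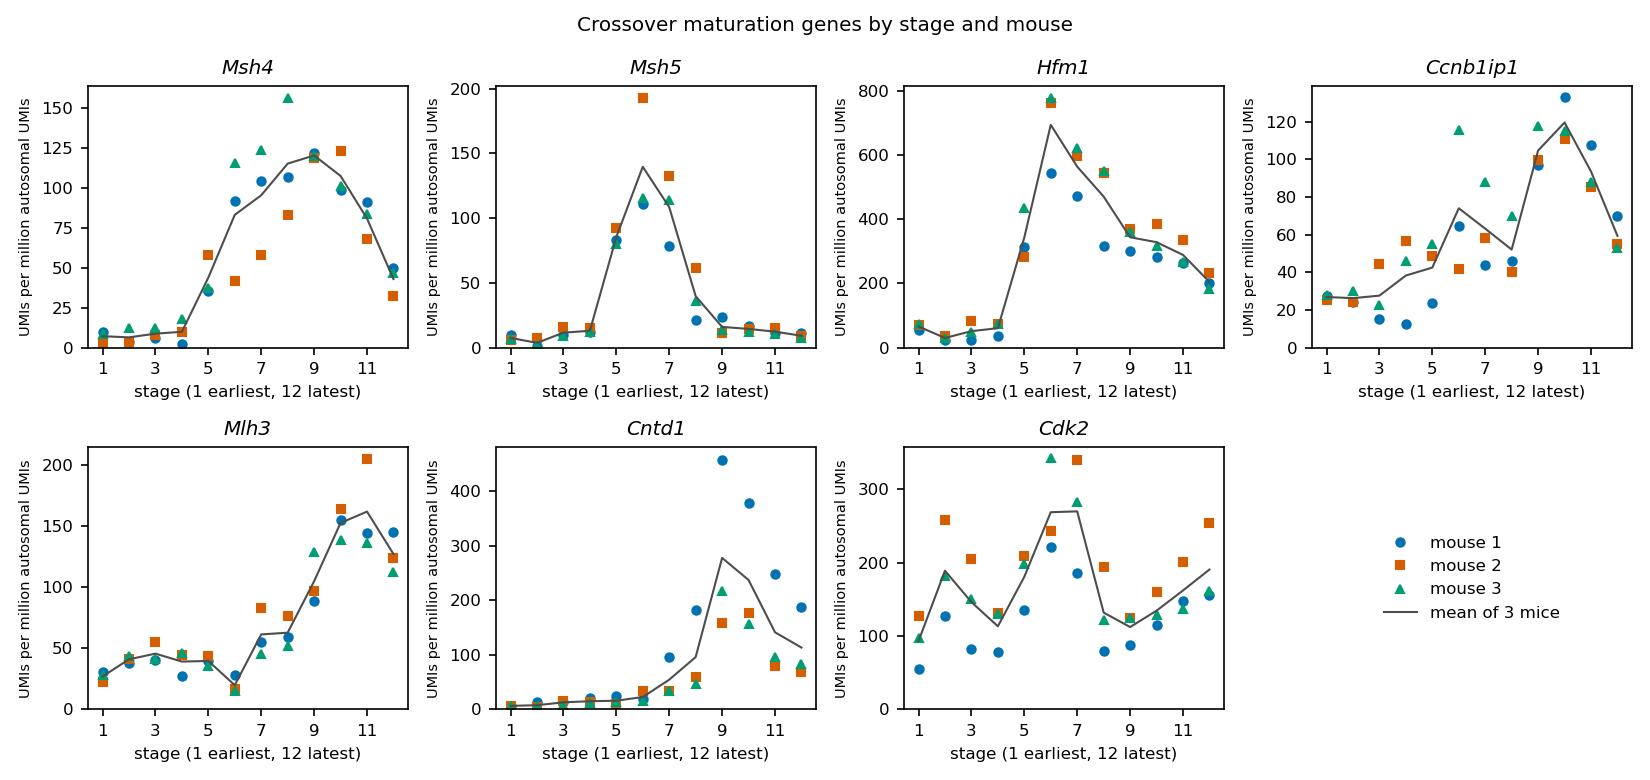
UMIs per 1000000 autosomal UMIs of the 7 genes at 12 stages, in 3 mice (symbols) with their mean (line). Msh5 and Hfm1 were highest at stage 6, Msh4 and Cntd1 at stage 9, Ccnb1ip1 at stage 10 and Mlh3 at stage 11, while Cdk2 was high at stage 2, at stages 6 and 7 and again at stage 12.

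Msh4 and Msh5, the subunits of the MutSγ clamp, rose at the same step and parted afterwards. Msh4 stood at 10.02, 2.82 and 8.60 CPM in mice 1, 2 and 3 at stage 1, from 18 UMIs in all, and at 2.06, 9.86 and 17.8 CPM at stage 4. At stage 5 it reached 35.7, 58.2 and 37.7 CPM, above every earlier value. The rise from stage 4 to stage 5 was 2.0 ± 0.45 on the log2 scale (SE, adjusted p = 0.000748). Msh4 was highest on average at stage 9, with 122, 119 and 120 CPM, and ended at 49.8, 32.5 and 46.6 CPM at stage 12. That last level was 2.73 ± 0.33 above stage 1 on the log2 scale (adjusted p = 1.83e-09). The drop from stage 11 to stage 12 was 0.82 ± 0.18 in size (log2 -0.82, adjusted p = 0.00215). That call was lost without the gate-sorted library of mouse 3 (adjusted p = 0.0875), in the table of reads (0.278) and without the mouse as a block (0.566).

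Msh5 had 10.02, 5.63 and 6.69 CPM at stage 1, from 17 UMIs, and 12.4, 14.8 and 11.8 CPM at stage 4. It rose to 83.4, 92.2 and 80.3 CPM at stage 5, by 2.75 ± 0.36 on the log2 scale (adjusted p = 1.66e-07). At stage 6 it peaked in each mouse, at 111, 192 and 116 CPM, and at stage 8 it was down to 21.7, 61.4 and 36.1 CPM. From stage 7 to stage 8 it changed by -1.40 ± 0.30 (adjusted p = 0.000786), a call that was lost without mouse 3 (adjusted p = 0.0693). At stage 12 it was at 10.96, 8.75 and 7.67 CPM, within the range of stage 1 or just above it, and the difference from stage 1 of 0.49 ± 0.39 did not pass the threshold (adjusted p = 0.254).

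The balance of the Msh4 and Msh5 transcripts thus moved over the stages, and the proteins were not measured. The ratio of Msh4 to Msh5 UMIs is read here only for its change over the stages. It was 0.43, 0.63 and 0.47 in mice 1, 2 and 3 at stage 5 and 5.96, 8.57 and 8.23 at stage 10, with no overlap between these stages. The counts behind it are small at the early stages, down to 1 Msh4 UMI in a sum, and no test was made of the ratio.

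Hfm1, the helicase, followed Msh5 in its rise but kept a high share. It stood at 53.9, 70.4 and 72.6 CPM at stage 1 and at 22.5, 37.4 and 30.1 CPM at stage 2, below stage 1 in every mouse (log2 -1.15 ± 0.22, adjusted p = 8.84e-05). From 35.0, 73.9 and 72.5 CPM at stage 4 it went to 314, 281 and 434 CPM at stage 5, a rise of 2.58 ± 0.20 on the log2 scale (adjusted p = 1.17e-12). A further rise of 1.02 ± 0.17 (adjusted p = 0.000165) brought it to its peak of 543, 761 and 777 CPM at stage 6. At stage 12 it was still at 200.0, 232 and 181 CPM, above every value of stages 1 to 4 (log2 1.88 ± 0.17 against stage 1, adjusted p = 1.68e-12). The steps down from stage 8 to 9 and from stage 11 to 12 passed the threshold (adjusted p = 0.0475 and 0.0403), but the first call was lost under 8 and the second under 7 of 10 alternatives with the same stages.

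Ccnb1ip1 encodes HEI10, a RING protein of crossover sites. Its share was 27.6, 25.4 and 27.7 CPM at stage 1 and 64.5, 41.8 and 116 CPM at stage 6. Stage 6 was above stage 1 by 1.55 ± 0.37 on the log2 scale (adjusted p = 0.000688), and this was lost without mouse 3 (0.91, adjusted p = 0.247). The step that held in all 10 alternatives was from stage 8, at 46.2, 39.9 and 70.2 CPM, to stage 9, at 96.8, 99.5 and 118 CPM. It measured 1.02 ± 0.24 (adjusted p = 0.00108), and the values of the 2 stages did not overlap. The mean was highest at stage 10, at 119.6 ± 11.8 CPM (SD, n = 3), and 59.4 ± 9.23 CPM remained at stage 12, which was 1.40 ± 0.25 above stage 1 (adjusted p = 4.18e-06).

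Mlh3, which was highest in mice 1 and 3 at stage 10 and in mouse 2 at stage 11, rose late. It had 30.1, 22.5 and 27.7 CPM at stage 1 and 27.6, 16.7 and 14.5 CPM at stage 6. In pachytene-like cells it stood at 89.1, 96.7 and 129 CPM at stage 9, 155, 164 and 139 CPM at stage 10 and 145, 205 and 136 CPM at stage 11. Stage 9 was above stage 8 by 0.82 ± 0.20 on the log2 scale (adjusted p = 0.00137) and stage 10 above stage 9 by 0.55 ± 0.16 (adjusted p = 0.00763). The first step was lost without mouse 3 (adjusted p = 0.134) and in the table of reads (0.491), and the second without mouse 1 (0.161), in the table of reads (0.116) and without the block (0.108). At stage 12 Mlh3 kept 146, 124 and 112 CPM, 2.44 ± 0.19 above stage 1 (adjusted p = 3.8e-14), and this call held in all 10 alternatives with the same stages.

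Cntd1, the cyclin-like factor of late crossover sites, had the largest fold between its lowest and its highest mean level among the members. From 6.26, 5.63 and 5.73 CPM at stage 1, or 13 UMIs in all, it went to 182, 58.3 and 46.1 CPM at stage 8 and 457, 158 and 217 CPM at stage 9. The rise from stage 8 to stage 9 was 1.58 ± 0.18 on the log2 scale (adjusted p = 5.46e-09), and without the mouse as a block its adjusted p was 0.0727. At stage 12 it was at 187, 68.7 and 82.6 CPM, above stage 1 by 4.50 ± 0.28 (adjusted p = 3.91e-17). Mouse 1 was above mice 2 and 3 from stage 7 on, by 2.27 to 3.49 times the mean of the other mice at these stages. Becn1, the gene over the 3' end of Cntd1, was also higher in mouse 1 at all 12 stages, by 1.36 to 4.23 times, and its mean over mice ranged from 34.5 to 73.4 CPM with no rise like that of Cntd1. Its part in the counts of Cntd1 was not tested.

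Cdk2, a kinase that also serves mitotic cell cycles, had separate highs as a share of UMIs, at stage 2, at stages 6 and 7 and, on the way up, at stage 12. At stage 1 it stood at 55.1, 127 and 96.5 CPM and at stage 2 at 127, 258 and 182 CPM, higher in every mouse by a common rise of 1.06 ± 0.16 on the log2 scale (adjusted p = 2.21e-06). It was at 78.2, 131 and 130.2 CPM at stage 4 and at 135, 209 and 198 CPM at stage 5. This second rise was 0.71 ± 0.18 (adjusted p = 0.00272) and was lost without the gate-sorted library of mouse 3 (adjusted p = 0.0681), in the table of reads (0.11) and without the block (0.0942). The high at stage 7 was 186, 340.2 and 283 CPM at stage 7, followed by 79.4, 193 and 122 CPM at stage 8, a change of -0.95 ± 0.17 (adjusted p = 0.000112), for which the adjusted p without the block was 0.0547. At stage 12 Cdk2 was back at 156, 254 and 161 CPM, above stage 1 by 1.31 ± 0.15 (adjusted p = 5.85e-10). Mouse 1 was the lowest at all stages except 11, so the groups of 3 values overlapped between stages even where every mouse moved the same way.

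Between neighbouring stages, members were called at every step except that from stage 3 to stage 4. From stage 1 to stage 2, 1 of the 7 was higher (Cdk2, against 13.4% of all genes) and 2 were lower (Hfm1 and Msh5, against 14.1%). From stage 2 to stage 3, Msh5 was higher (log2 1.93 ± 0.51, adjusted p = 0.0073, against 6.72% of all genes) and Cdk2 was lower (log2 -0.42 ± 0.15, adjusted p = 0.0432, against 9.17%). The first of these calls was lost without mouse 1 or mouse 3 (adjusted p = 0.153 and 0.111), and the second under 7 of 10 alternatives. From stage 4 to stage 5, 4 of the 7 were higher, namely Msh4, Msh5, Hfm1 and Cdk2, against 14.0% of all genes. From stage 5 to stage 6, 2 were higher (Hfm1 and Cdk2, against 3.19%), but the call on Cdk2 held in only 1 of 10 alternatives. From stage 6 to stage 7 only Mlh3 was higher (against 6.63%). From stage 7 to stage 8, Cntd1 was higher (9.14% of all genes) and Msh5 and Cdk2 were lower (6.42%). From stage 8 to stage 9, Mlh3, Ccnb1ip1 and Cntd1 were higher (16.2%), and Msh5 and Hfm1 were lower (16.0%). Mlh3 was again higher at stage 10 than at stage 9 (13.6%), Cntd1 lower at stage 11 than at stage 10 (1.09%), and Msh4, Ccnb1ip1 and Hfm1 lower at stage 12 than at stage 11 (3.80%).

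Not all of these steps were stable. Of 25 calls between neighbouring stages, 14 higher and 11 lower, 7 held in all 10 alternatives that use the same stages. They were the rises of Msh4, Msh5 and Hfm1 to stage 5, of Hfm1 to stage 6, of Ccnb1ip1 to stage 9 and of Cdk2 to stage 2, and the drop of Hfm1 to stage 2. The call on Mlh3 from stage 6 to stage 7 (1.58 ± 0.47 on the log2 scale, adjusted p = 0.0172) was lost when any 1 of the mice was left out (adjusted p = 0.0719, 0.123 and 0.122 without mouse 1, 2 and 3). Of 58 calls against stage 1, 42 held in all 10.

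**Figure D2:**
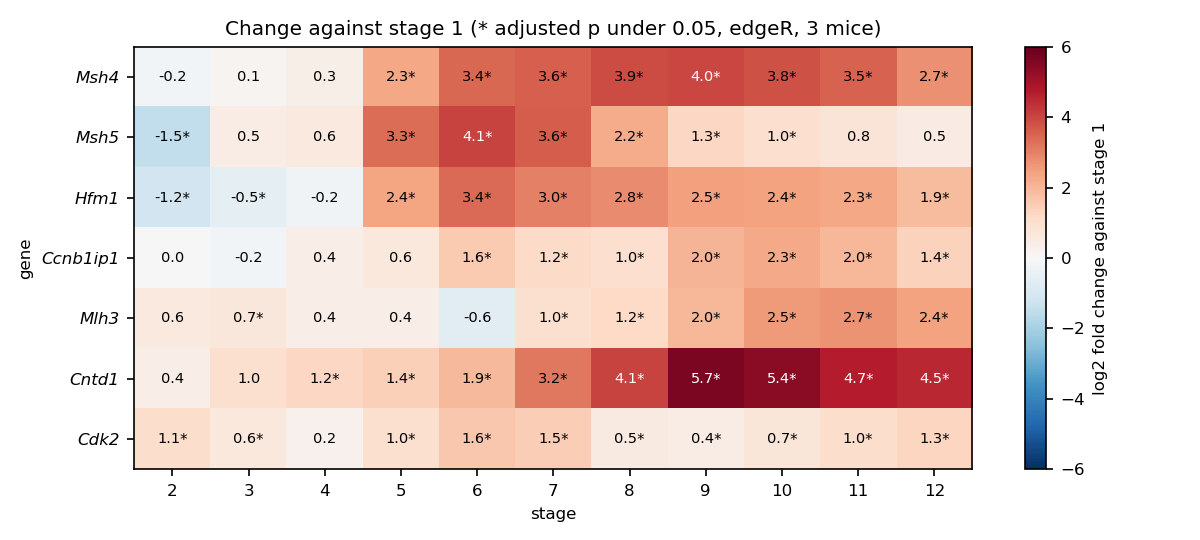
Fitted log2 fold change of each gene (rows) at stages 2 to 12 (columns) against stage 1, from 3 mice, with an asterisk where the adjusted p was under 0.05. The changes of Msh4, Msh5 and Hfm1 first pass 2 on the log2 scale at stage 5 and that of Cntd1 at stage 7. Those of Ccnb1ip1 pass it at stages 9 and 10 and of Mlh3 from stage 10.

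Stage 5, where 4 members rose, also held the highest level of Sertoli cell markers. The 7 Sertoli markers summed to between 107 and 261 CPM at stage 5, between 24.7 and 65.1 CPM at stage 4 and between 33.8 and 55.3 CPM at stage 6. All 7 were detected at stage 5, led by Cldn11 at 67.4 CPM on average and Amhr2 at 42.5 CPM, while Fshr had 0 UMIs in 2 of the mice. At stage 6, where the Sertoli markers summed to 46.4 CPM on average, the mean level of each of the 4 members was above its mean at stage 5. The part of these markers in the results at stage 5 was not tested.

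The mean stage of a gene, its stage numbers weighted by its CPM, gave an order that was close to the same in the 3 mice. It was 6.46 ± 0.027 for Msh5, 6.68 ± 0.26 for Cdk2, 7.59 ± 0.16 for Hfm1, 7.87 ± 0.45 for Ccnb1ip1, 8.28 ± 0.22 for Msh4, 8.42 ± 0.12 for Mlh3 and 9.25 ± 0.15 for Cntd1 (SD, n = 3). Of the 21 pairs of genes, 18 had the same order in all 3 mice. The other 3 pairs were Msh4 with Ccnb1ip1, Msh5 with Cdk2 and Ccnb1ip1 with Hfm1, so these neighbours were not separated. Mlh3 and Msh4 kept their order but differed by 0.012 stages in mouse 2. The mean stage of Cdk2 lies near the middle of the order, where a gene with the same CPM at every stage would also lie. It averages over the separate highs of Cdk2 and does not show when they occurred.

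**Figure D3:**
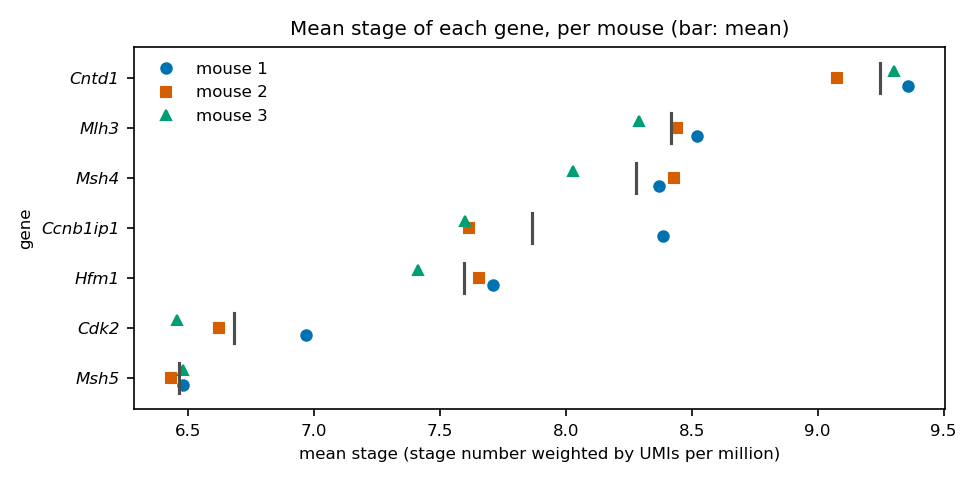
Mean stage of each gene (stage number weighted by CPM) in 3 mice, with the mean as a bar. Msh5 and Cdk2 have the lowest values, near 6.5, where a gene with the same CPM at every stage would also lie. Cntd1 lies at the late end near 9.2, and Ccnb1ip1 has the widest spread over mice.

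Total RNA per cell changed along the same stages, so a share can drop while the number of molecules does not. Against the ERCC spike-ins, synthetic RNA added to every well, all endogenous UMIs changed by -1.99 ± 0.22 on the log2 scale (SD, n = 3) from stage 1 to stage 7 and stood 1.68 ± 0.40 above stage 1 at stage 12. On this scale Hfm1 was not highest at stage 6. It had 7.83, 3.71 and 2.45 UMIs per 1000 ERCC UMIs in mice 1, 2 and 3 at stage 1, 20.2, 10.9 and 9.41 at stage 6 and 84.7, 32.8 and 27.3 at stage 12, higher at stage 12 in every mouse. In UMIs per cell, stages 1, 6 and 12 had means of 1.89, 5.38 and 18.3 over the mice.

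Msh5, whose share at stage 12 did not differ from stage 1 beyond the threshold, was 2.03 ± 0.35 above stage 1 per ERCC UMI, close to its 2.45 ± 0.87 at stage 6. Its UMIs per cell went from 0.22 at stage 1 to 1.03 at stage 6, 0.39 at stage 9 and 0.83 at stage 12. Mlh3 was below stage 1 per ERCC UMI at stage 6, by -2.27 ± 0.17, from only 3, 2 and 3 UMIs in mice 1, 2 and 3, and this SD does not cover the counting error of so few UMIs. Ccnb1ip1 stood at -0.44 ± 0.91 there, with mouse 3 above stage 1. At stage 12 Ccnb1ip1 and Mlh3 were above stage 1 by 2.84 ± 0.29 and 3.96 ± 0.20. Cdk2, whose share was high at stages 6 and 7, was not above stage 1 there on average per ERCC UMI. It stood at -0.47 ± 0.29, -0.19 ± 0.68 and -0.42 ± 0.32 against stage 1 at stages 5, 6 and 7. The mean at stage 6 lay above those at stage 4 (-0.81 ± 0.39) and stage 8 (-0.76 ± 0.21). This held in mice 1 and 3, while in mouse 2 Cdk2 was higher at stage 8 than at stage 6. Its highest level per ERCC UMI was at stage 12 in all 3 mice, 2.79 ± 0.33 above stage 1. Msh4 was 4.47 ± 0.56 and Cntd1 5.83 ± 0.73 above stage 1 at stage 12. The median over the members at stage 12 was 3.35 on this log2 scale. These values are descriptions, and the ratios to ERCC UMIs differed between mice, so only changes within a mouse are read.

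**Figure D4:**
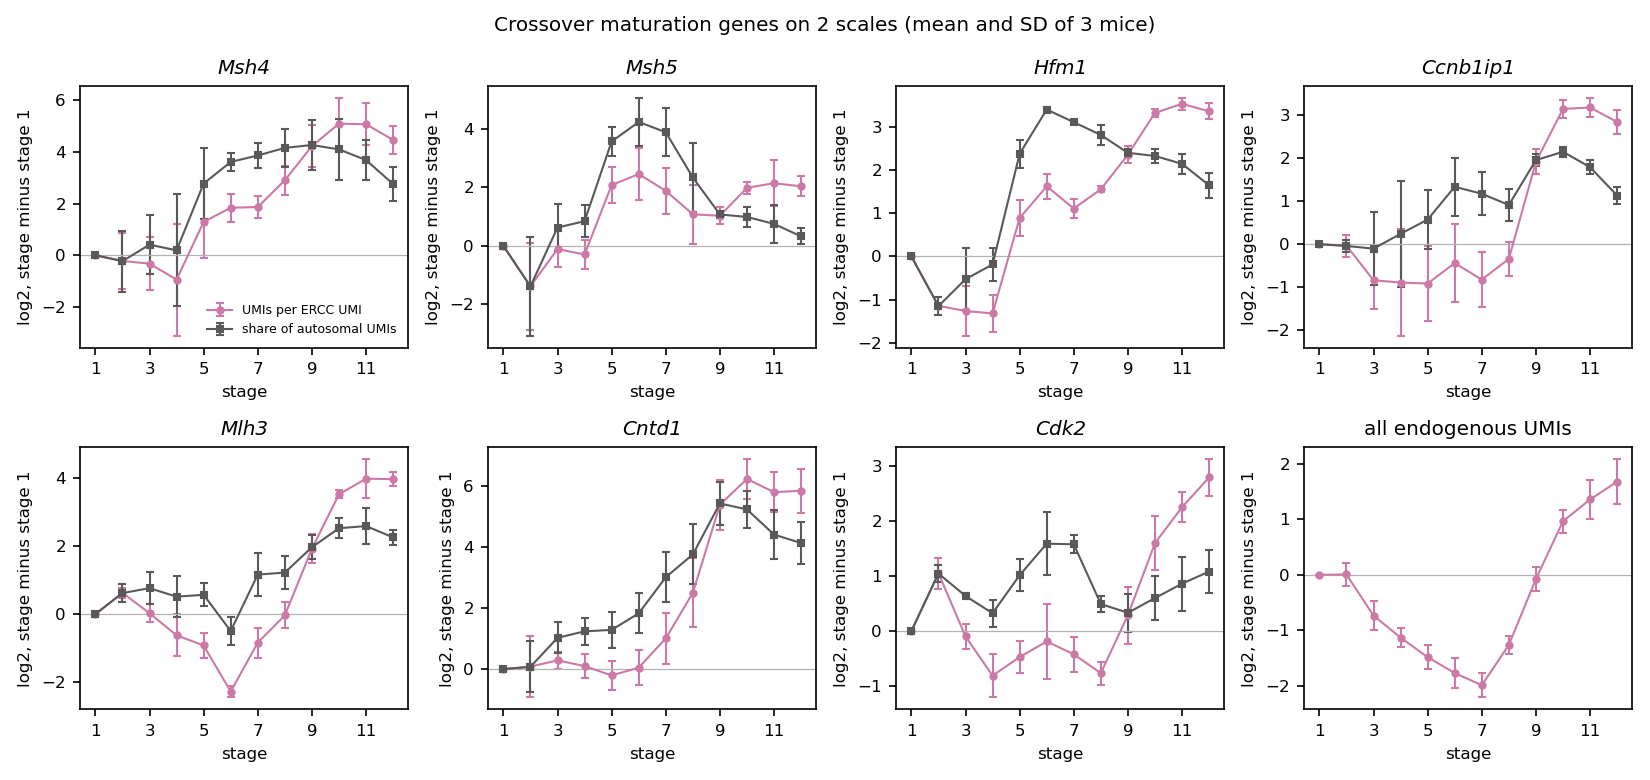
Log2 change from stage 1 of the 7 genes per ERCC spike-in UMI and as a share of autosomal UMIs, and of all endogenous UMIs per ERCC UMI, at 12 stages (mean and SD of 3 mice). The mean shares of all genes but Cdk2 are lower at stage 12 than at stage 10. Per ERCC UMI, Msh4, Ccnb1ip1 and Cntd1 are also lower at stage 12 than at stage 10, and Msh5, Mlh3, Hfm1 and Cdk2 are higher. The levels per ERCC UMI are above stage 1 for all 7 genes at these stages.

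Over the 12 stages the members paired in different ways. Pearson's r of log2(CPM + 10), computed in each mouse over the 12 stages and averaged, was 0.91 between Msh4 and Hfm1, 0.84 between Msh4 and Ccnb1ip1, 0.84 between Mlh3 and Cntd1 and 0.81 between Ccnb1ip1 and Cntd1. It was 0.49 between the clamp subunits Msh4 and Msh5, and -0.33 between Msh5 and Mlh3. These are descriptions over 12 points that share their libraries and stages.

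Each gene was also set beside the 7987 genes with a mean of at least 50 CPM at 1 or more stages. Most like Hfm1 were Sycp2, of the axis of meiotic chromosomes, with a mean r of 0.98, Dnajc3 with 0.97 and Atr, the checkpoint kinase of unsynapsed chromosomes, with 0.96. Most like Msh4 were D14Abb1e, Hormad1, also of the chromosome axis, and 1700001L05Rik, with mean r of 0.96, 0.95 and 0.95. Msh5 was most like Bub1, a spindle checkpoint kinase, Pbx3 and Pigp, with 0.96, 0.96 and 0.95. Mlh3 was most like Mif4gd, Psip1 and Chmp2b, with 0.95, 0.95 and 0.94. Cntd1 was most like Cox7b2, Glipr1l2 and Hspa2, a heat shock protein of pachytene cells, with 0.96, 0.95 and 0.95. The likeness was weaker for Ccnb1ip1, with BC031181, Mmadhc and Rars2 at 0.88, 0.88 and 0.87, and for Cdk2, with Gt(ROSA)26Sor, Uchl3 and Zfp672 at 0.86, 0.80 and 0.79. Of these genes Mif4gd, Cox7b2 and Zfp672 took part in the staging.

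Related genes did not all move with the members between stage 1 and stage 12. The shares over all genes tested were 34.4% higher and 42.4% lower, and the counts of each list are to be read beside them. Of 7 other crossover factors tested, 1 was higher and 6 were lower, with a median log2 change of -1.68 against 1.88 for the members and -0.20 for all genes. Prr19, which binds CNTD1, was higher by 0.61 ± 0.21 (adjusted p = 0.00796), from 65.6 ± 13.7 to 82.2 ± 27.2 CPM (SD, n = 3). Tex11, a meiosis gene of the X chromosome, and Tex15, needed for repair of meiotic breaks, were lower by log2 -4.89 ± 0.31 and -4.25 ± 0.28 (adjusted p = 3.89e-17 and 2.27e-16).

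Of the 6 relatives in mismatch repair, which share ancestry with the Msh and Mlh members, 1 was higher and 5 were lower, with a median of -1.75. Msh3 was higher by 1.30 ± 0.23 (adjusted p = 3.2e-06), and Pms1 was lower by log2 -4.00 ± 0.33 (adjusted p = 6.29e-14). Of 10 nucleases and dissolution factors, which handle joint molecules by other routes, 3 were higher and 3 lower, with a median of -0.04. Slx4, a nuclease scaffold, and Mus81, a nuclease subunit, were higher by 2.09 ± 0.21 and 2.37 ± 0.55 (adjusted p = 1.44e-11 and 0.000174). Rmi2, of the dissolution complex, and Fancm, a translocase, were lower by log2 -1.36 ± 0.30 and -1.13 ± 0.29 (adjusted p = 8.69e-05 and 0.000658). The level of Rmi2 differed widely between mice, at 309 ± 487 CPM (SD, n = 3) at stage 1 and 81.4 ± 119 CPM at stage 12. Mus81 started low, at 6.92 ± 7.04 CPM at stage 1, against 24.2 ± 9.35 CPM at stage 12.

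The list of 13 partners and inhibitors of CDK2 also held the related kinases Cdk1 and Cdk4. Of the 13, 5 were higher (Cdk1 among them) and 7 lower (Cdk4 among them), with a median of -0.79. Spdya, which activates CDK2 in meiosis, rose from 19.8 to 341 CPM (4.30 ± 0.20 on the log2 scale, adjusted p = 6.87e-21) after a high of 530.2 CPM at stage 6, and Ccna1, the meiotic A cyclin, rose by 3.81 ± 0.56 (adjusted p = 1.17e-07). Cdkn1b, the inhibitor p27, and Ccna2, the A cyclin of mitotic cycles, fell by log2 -5.09 ± 0.50 and -4.46 ± 0.20 (adjusted p = 3.42e-11 and 2.87e-21). Of 10 strand exchange genes, 4 were higher and 4 lower, with a median of -0.35. Psmc3ip (Hop2) and Meiob were higher by 3.38 ± 0.20 and 1.78 ± 0.36 (adjusted p = 4.58e-18 and 2.55e-05), and Dmc1, the meiotic recombinase, and Mnd1 were lower by log2 -3.18 ± 0.34 and -2.35 ± 0.29 (adjusted p = 6.59e-11 and 2.55e-09).

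The synaptonemal complex holds the homologues together, and its list of 9 genes also included Hormad1, of the chromosome axis. Of these 9, 6 were higher and 2 lower, with a median of 1.44, the nearest to that of the members. Syce1 and Hormad1 were higher by 2.65 ± 0.14 and 2.64 ± 0.15 (adjusted p = 2.58e-19 and 4.49e-18), and Syce2 and 4930447C04Rik (Six6os1) were lower by log2 -1.34 ± 0.16 and -0.57 ± 0.15 (adjusted p = 1.88e-09 and 0.000522). The lists are compared by counts and medians only.

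**Figure D5:**
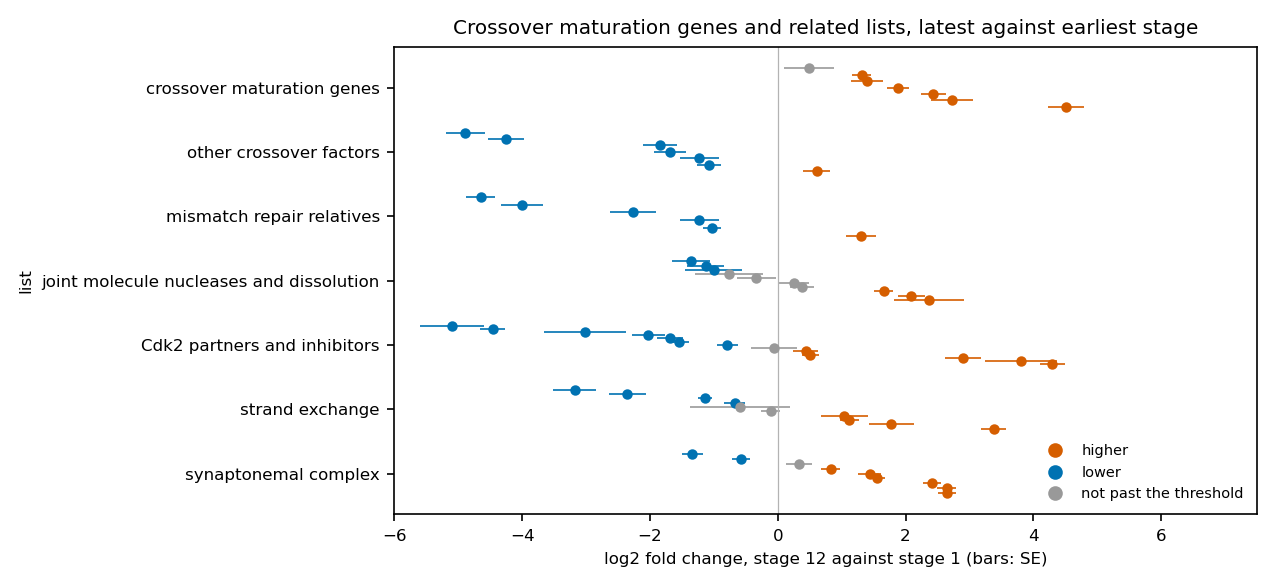
Log2 fold change of stage 12 against stage 1 with its SE for each gene of the crossover maturation set and of 6 related lists, coloured by call. 6 of the 7 crossover maturation genes are higher, as are 6 of 9 synaptonemal complex genes, while 5 of 6 mismatch repair relatives are lower.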

How the data were processed

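The authors deposited tables of UMI counts and read counts per gene and well, whole numbers by their values. The authors also deposited transcripts, which are estimated counts and need not be whole. Reads were aligned with BWA 0.7.10 to mm10, per the submitters' processing notes. The counting tool is not given in the sources used here. Columns name wells, not barcode sequences, so shared barcodes could not be counted, and the 8 libraries of mouse 1 cannot be separated by column.

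Wells with at least 1000 UMIs were kept, and 8 wells with over 0.5% of UMIs from elongating spermatid markers were left out, a limit set after the data were seen. Cells were staged with 1500 variable genes of odd-numbered autosomes without any listed gene (Seurat 5.3.0 anchors over mice, scanpy 1.11.5, 15 components, Leiden resolution 1.0, diffusion pseudotime). 3 clusters of 203 cells with a median UMI count under 1/3 of that of all kept cells were left out. No doublets were called, as each well received 1 sorted cell. UMI counts were summed per mouse and stage (36 sums) and fitted with edgeR 4.0.16 (quasi-likelihood, TMM, filterByExpr, stage with the mouse as a block, since stages of a mouse come from the same animal), with p-values adjusted by Benjamini-Hochberg over 11139 genes and a threshold of 0.05. CPM values carry no TMM factor, so fitted changes differ somewhat from ratios of CPM. The tests compare stages built from other genes of the same cells. The fit was tested on simulated data.

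Named genes were the members, per related list up to 2 genes with the largest and 2 with the smallest called change, per member the 3 genes most like it, and Dazl. Some of the genes so chosen are not reported here. The members and lists were chosen with earlier results of these data known. Alternatives were DESeq2 1.42.0, other size factors, no filter, each mouse left out, no block, the transcripts (rounded) and read tables, stricter minima, other staging, and 2 added after seeing the data: the spermatid wells kept, and the gate-sorted library of mouse 3 left out. Symbols absent from the table were sought by RefSeq synonyms.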

Additional observations from a re-analysis of the deposited data

Results flagged for a closer look

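The 3 clusters left out for low depth, 203 cells with 665641 autosomal UMIs in all, take no part in the stages, and the members were detected in them. Their summed levels were 46.6 CPM for Msh4, 9.0 for Msh5, 87.1 for Mlh3, 102.2 for Ccnb1ip1, 240.4 for Hfm1, 195.3 for Cntd1 and 163.8 for Cdk2, each from more than 3 UMIs. One of these clusters, of 77 cells, held 121 of the 130 Cntd1 UMIs and had 329.1 CPM of it. The left-out cells were not tested against the stages.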

How the results depend on the processing

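Under all 16 alternatives all 7 members changed over the stages, 6 or 7 exceeded their earliest level in the last stage, and none lay below it by the test. The change of Msh5 passed the threshold with at least 2000 UMIs per well (0.99, adjusted p = 0.0263) and with the spermatid wells kept (0.86, adjusted p = 0.0455). Median-ratio size factors shifted all genes by -0.077 in the median on the log2 scale. Genes of the related lists called higher numbered 16 to 23 and lower 21 to 26.

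Single steps were less stable. The member calls lower than the earliest stage, 3 in the fit as reported, were 1 with no filter on low counts, 1 without the gate-sorted library and 1 to 3 with a mouse left out. Lower calls against the stage before, 11 as reported, were 7 with no filter, 7 with sums of at least 20 cells, 4 in the read table, 3 without the gate-sorted library and 4 to 9 with a mouse left out; higher ones, 14 as reported, were 9 to 12 with a mouse left out. Without the mouse as a replicate block, there was 1 lower call against the earliest stage, with 9 higher and 3 lower calls against the stage before, and the block changed no other count by over 1.5 times.

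The median position of the members along the order (0 first, 1 last) was 0.624 as reported, 0.596 with sums of at least 20 cells, 0.597 at Leiden resolution 0.6 and 0.601 to 0.636 with a mouse left out. Spearman's rho between the orders of the members by mean stage was 0.929 or more under 12 alternatives. The median per ERCC UMI at the latest stage was 3.29 to 3.46 with a mouse left out. Depth limits the early stages: at stage 1 Msh4, Msh5 and Cntd1 rest on 13 to 18 UMIs over 3 mice, and single sums of Msh4, Msh5, Mlh3 and Cntd1 up to stage 6 go down to 1 or 2 UMIs.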
